A study of Sus scrofa with 3 samples.

Results

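The miR-30 family in porcine psoas major muscle is described here at ages of 63 d, 98 d and 161 d. Its members were all mature miRNAs listed under a porcine name of number 30 with a letter from a to e, on either arm of the hairpin. This gave 10 of the 276 porcine mature names in the 3 libraries, 5 from the 5′ side (5p arms) and 5 from the 3′ side (3p arms) of 6 hairpins. The rule used names only and no measured value, but the members were chosen with earlier results of these data known. Small RNA was sequenced from male fattening pigs, castrated hybrids of Landrace, Large White and Duroc, at each of these ages. Equal amounts of RNA from 6 pigs were pooled into 1 library per age. With 1 library for each age there were no replicates, the spread between pigs was not measured, and no p-value was computed. All intervals below are 95% intervals that cover counting error only.

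A miRNA is cut from a hairpin-shaped precursor, and each side of the hairpin can give a mature arm. The seed, bases 2 to 8 from the 5′ end, is the stretch that pairs with target mRNAs, so arms with the same seed can bind the same sites. The miR-30 family is abundant in heart, kidney and skeletal muscle and has been linked to the differentiation of muscle cells.

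The most copied read of each 5p arm is shown with its seed in capitals, because the seed is what defines the family.
ssc-miR-30a-5p: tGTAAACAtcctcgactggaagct
ssc-miR-30b-5p: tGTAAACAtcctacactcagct
ssc-miR-30c-5p: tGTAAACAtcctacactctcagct
ssc-miR-30d: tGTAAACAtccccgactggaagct
ssc-miR-30e-5p: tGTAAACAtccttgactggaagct
All 5 shared the seed GTAAACA, and no other of the 276 porcine names carried it. The prefix ssc marks a porcine name and is left out below where the porcine arm is meant. Positions are counted from 1 at the 5′ end. The miR-30a-5p read differed from miR-30e-5p at 1 position (C13T) and from miR-30d at 1 position (T12C). The miR-30c-5p read was that of miR-30b-5p with 2 further bases in its 3′ part, after 18 identical bases.

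The 3p arms carried other seeds, again in capitals. The levels below are grouped by 2 kinds of seed, a split made after the values were seen.
ssc-miR-30a-3p: cTTTCAGTcggatgtttgcagc
ssc-miR-30e-3p: cTTTCAGTcggatgtttacagc
ssc-miR-30b-3p: cTGGGAGGtggatgtttacttc
ssc-miR-30c-1-3p: cTGGGAGAgggttgtttactcc
ssc-miR-30c-3p: cTGGGAGAaggctgtttactct
Between miR-30a-3p and miR-30e-3p there was 1 difference (G18A). The reads of miR-30c-1-3p and miR-30c-3p differed at 3 positions (G9A, T12C and C22T), and their seed differed from that of miR-30b-3p at its last base (G8A, with miR-30b-3p first). The opposite arm of the mir-30d hairpin had no porcine name. It was listed under the human name miR-30d-3p, with the read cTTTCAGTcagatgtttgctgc and the seed of miR-30a-3p, and was not counted as a member.

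The 6 hairpins formed 3 neighbouring pairs, each on its own genome sequence and with both hairpins on the same strand. The genome build was not given in the sources used here. The mir-30d hairpin (positions 6713514 to 6713596, plus strand) lay 4039 bases from mir-30b (6717636 to 6717724). The mir-30c-1 hairpin (157473588 to 157473684, minus strand) lay 2956 bases from mir-30e (157476641 to 157476742). The mir-30c-2 hairpin (57721666 to 57721775, minus strand) lay 28960 bases from mir-30a (57750736 to 57750842). In the RefSeq gene table of the pig assembly Sscrofa11.1, whose coordinates were not used, the same 3 pairs were neighbours with 0 genes between them. There, MIR30C-1 and MIR30E lay inside NFYC, which encodes a subunit of the transcription factor NF-Y. MIR30C-2 and MIR30A lay inside the uncharacterised gene LOC102157778, and no gene of the table enclosed MIR30B or MIR30D. The table gives gene spans only, so exon and intron were not told apart.

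Capitals in the next 4 hairpins mark the reads of their arms. The first pair is shown because its arms changed unequally with age, the second because its 5p reads are identical.
mir-30d: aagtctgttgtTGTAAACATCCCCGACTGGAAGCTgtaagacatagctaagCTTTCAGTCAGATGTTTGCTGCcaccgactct
mir-30b: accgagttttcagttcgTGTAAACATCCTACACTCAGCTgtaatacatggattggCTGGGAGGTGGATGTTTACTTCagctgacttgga
mir-30c-1: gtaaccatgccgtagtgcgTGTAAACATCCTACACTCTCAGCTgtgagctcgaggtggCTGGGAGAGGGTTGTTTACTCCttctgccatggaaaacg
mir-30c-2: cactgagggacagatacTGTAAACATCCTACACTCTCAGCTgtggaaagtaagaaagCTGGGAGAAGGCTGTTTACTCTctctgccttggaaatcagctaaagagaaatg
The 5p read of mir-30c-1 and mir-30c-2 is the same sequence. The authors' files divided its reads between both hairpins, 5477.5 and 5485.5 at 63 d, 11330.8 and 11347.8 at 98 d, and 6808.8 and 6819.8 at 161 d. These near-equal values are set by the division, so miR-30c-5p is given below as the sum over both hairpins. The predicted folding free energy was -55.2 and -56.8 kcal/mol for mir-30a and mir-30e, and between -36.1 and -33.6 kcal/mol for the other 4 hairpins.

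The 63, 98 and 161 d libraries held 1464699, 2418187 and 2242716 listed reads, respectively. Levels are given as reads per 1000000 reads listed in the library (RPM). The limit used for a count of 0, 3 counts, corresponds to 2.05, 1.24 and 1.34 RPM. A read covers a whole mature arm, so no length correction was made. How well each sequence was ligated and amplified was not measured, so ratios between different arms carry that limit. The 7 skeletal muscle markers (miR-1, miR-133a, miR-133b, miR-206, miR-208b, miR-499 and miR-486) were all listed and together held 489916, 439927.5 and 507056 RPM. The hairpin criteria in the headers differed between libraries. The 63 d file allowed up to 7 errors in the mature region and a loop of up to 20 bases, against 4 errors and 200 bases in the other 2. Whether this bears on comparisons with 63 d was not tested.

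The family was most abundant at 98 d on this scale. It held 4.64% of the reads at 63 d (4.61 to 4.68%, Wilson interval), 6.12% at 98 d (6.09 to 6.15%) and 5.004% at 161 d (4.98 to 5.03%). These shares correspond to 46422, 61225 and 50041 RPM. The total was 1.32-fold higher at 98 d than at 63 d (exact interval 1.31 to 1.33) and 1.08-fold higher at 161 d than at 63 d (1.07 to 1.09), and both stayed above 1 under the 5 other library scalings tried. From 98 to 161 d the fold was 0.817 (0.811 to 0.824), but it was 1.02, 1.02 and 1.04 with the authors' library factors, edgeR's TMM and DESeq2's median of ratios. The direction of this step thus depended on the scaling.

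**Figure D1:**
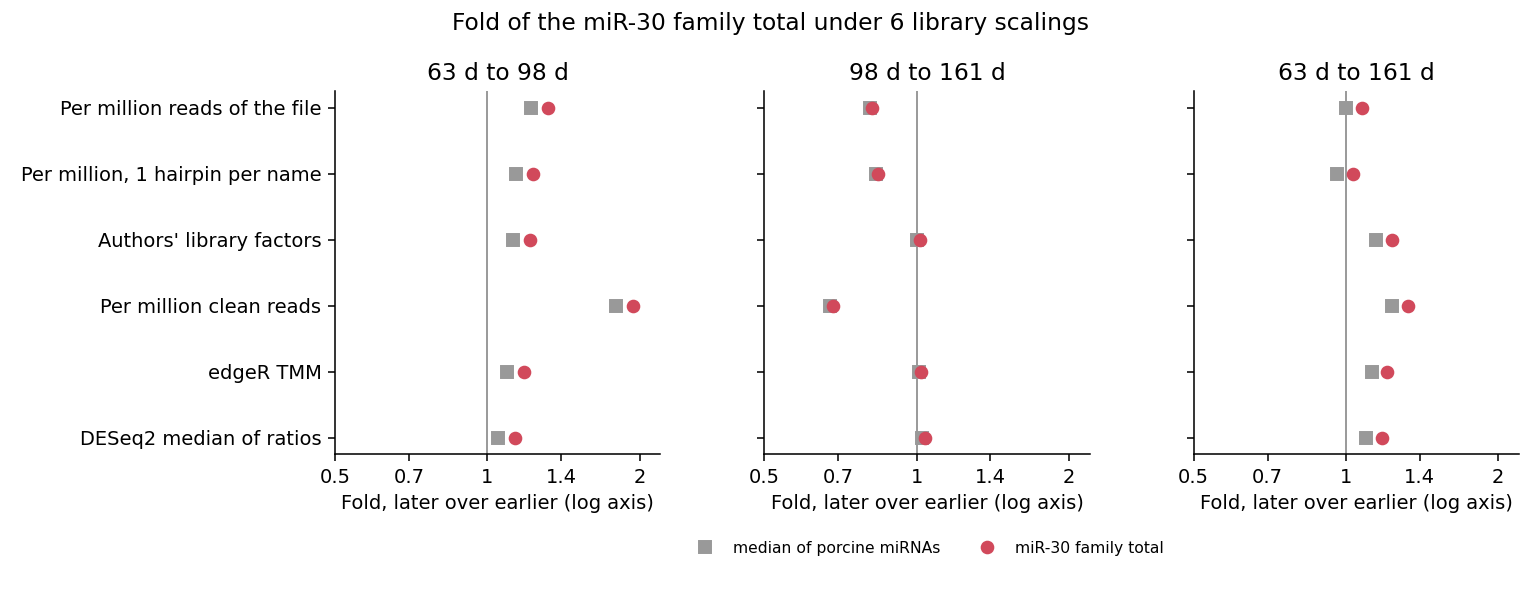
Fold of the miR-30 family total (circles) and the median fold of the porcine miRNAs (squares) for each pair of ages, as the later over the earlier age on a log axis, under 6 library scalings. From 98 to 161 d the circles lie at 0.817 with the reads of the file as scale and at 1.04 with DESeq2's median of ratios, and in every pair they lie close to the squares.

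The median porcine miRNA moved with the scaling too. Over the 6 scalings its fold ran from 1.05 to 1.80 between 63 and 98 d, from 0.675 to 1.03 between 98 and 161 d and from 0.960 to 1.23 between 63 and 161 d. Against the scale of reads listed in the file, the log2 shifts lay between -0.22 and 0.56, between -0.26 and 0.35 and between -0.06 and 0.30. Relative to the median porcine miRNA the scaling drops out. The family total then moved 1.08-fold from 63 to 98 d, 1.01-fold from 98 to 161 d and 1.075-fold from 63 to 161 d.

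Markers of other cells also had their highest sums at 98 d in several lists. The 2 red blood cell markers (miR-451 and miR-144) held 808, 1491 and 1069 RPM at 63, 98 and 161 d. The endothelial marker miR-126 held 5833, 9769 and 6759 RPM, and of the 3 white blood cell markers the 2 listed ones (miR-142 and miR-150, not miR-223) held 1096, 1488 and 985 RPM. The 2 smooth muscle markers miR-143 and miR-145 held 9415, 11874 and 27273 RPM, and the liver marker miR-122 held 7.51, 123 and 5.35 RPM. Of 6 epithelial markers, miR-429 and miR-205 held 173, 327 and 255.5 RPM, while miR-200a, miR-200b, miR-200c and miR-141 were not listed. The part of these cells in the level of the family was not tested. In pooled tissue, fewer cells of a type and less RNA per cell cannot be told apart.

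The 5p arms made up nearly all of the family, 97.6% of its reads at 63 and 98 d and 97.5% at 161 d. By all reads, the order at 63 d was miR-30a-5p, miR-30e-5p, miR-30d, miR-30c-5p and miR-30b-5p, and at 98 and 161 d miR-30e-5p stood first. Neighbours in each of these orders differed by more than counting error, the closest being miR-30e-5p and miR-30a-5p at 63 d with a ratio of 0.969 (0.9495 to 0.989). The order depended on which reads were counted. With copies of the most copied read, miR-30e-5p stood first at 63 d too, with 14423 copies against 13247 of miR-30a-5p. At 98 d miR-30c-5p then stood above miR-30d, with 17809 against 17040 copies.

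**Figure D2:**
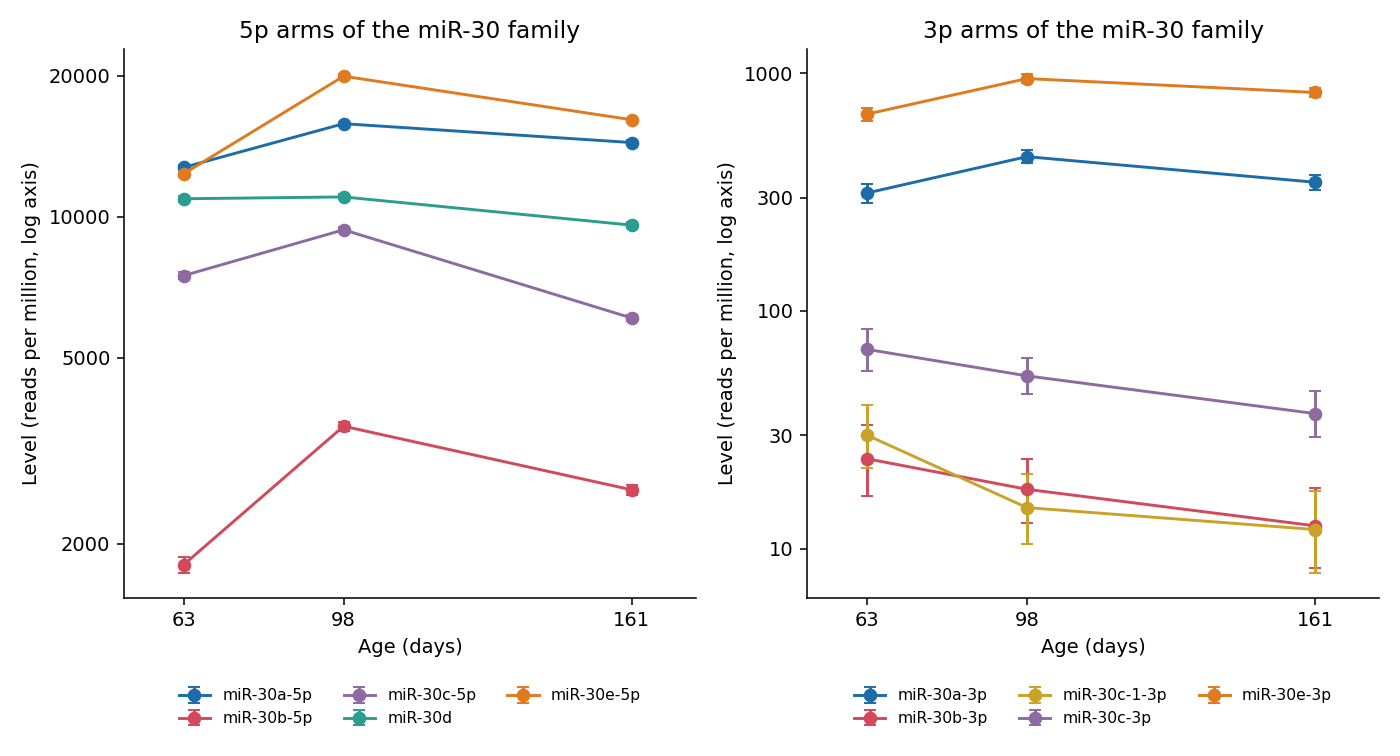
Level of each arm in reads per 1000000 listed reads (RPM, log axis) against age in days, 5p arms on the left and 3p arms on the right. Points are single libraries of 6 pooled pigs and bars are exact 95% Poisson intervals for counting error. The 5p arms lie between 1805 and 19965 RPM and the 3p arms between 12.0 and 950 RPM.

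The ssc-miR-30e-5p level was 12352, 19965 and 16114 RPM at 63, 98 and 161 d, respectively. It was 1.62-fold higher at 98 d than at 63 d (1.59 to 1.64), 1.32 times the fold of the median porcine miRNA. Among the porcine names it held ranks 12, 9 and 10. Its fold from 98 to 161 d was 0.807, 0.999 times that of the median porcine miRNA. In this step the folds of miR-30e-5p, miR-30a-5p, miR-30d, miR-30e-3p and miR-30c-1-3p were below 1 on the main scale and above 1 with the authors' factors, TMM and the median of ratios, where they reached 1.03, 1.16, 1.11, 1.11 and 1.03.

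The other arm with the same seed and 1 base difference, ssc-miR-30a-5p, stood at 12746, 15807 and 14405 RPM and ranked 10, 10 and 12. From 63 to 98 d it was 1.24-fold higher (1.22 to 1.26), close to the median miRNA (1.015 times its fold). The ratio of miR-30e-5p to miR-30a-5p, which does not depend on scaling, was 0.969, 1.26 and 1.12 in order of age. It was thus 1.30-fold higher at 98 d than at 63 d (1.27 to 1.34, Wald interval) and 0.886-fold at 161 d against 98 d (0.868 to 0.904). With copies of the most copied read the ratio lay above 1 at 63 d too, with 14423 against 13247 copies.

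For ssc-miR-30d the levels were 10926, 11024 and 9596 RPM, at rank 14 in all 3 libraries. Its fold from 63 to 98 d was 1.01 with an interval that holds 1 (0.989 to 1.03), and over 10 alternatives it ran from 0.869 to 1.485, below 1 in 5 of them. Relative to the median miRNA it was 0.826-fold in that step. From 63 to 161 d its fold was 0.878 (0.860 to 0.897) on the main scale, but 1.006 with the authors' factors and 1.08 with clean reads as scale.

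The ssc-miR-30c-5p level, summed over its 2 hairpins, was 7485, 9378 and 6077 RPM. Its fold from 63 to 98 d, 1.25, was 1.025 times that of the median miRNA and its fold from 98 to 161 d was the lowest of the 5p arms, 0.648 (0.634 to 0.662). Under the alternatives this last fold lay between 0.541 and 0.824.

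The least abundant 5p arm was ssc-miR-30b-5p, with 1805, 3569 and 2610 RPM and ranks of 41, 31 and 32. Its fold from 63 to 98 d, 1.98 (1.89 to 2.07), was the largest of the 10 arms and 1.62 times that of the median miRNA. The interval holds 2, the study's limit for a fold, and the side also depended on the scaling. The fold was 1.82 with the authors' factors, 1.77 with TMM and 1.70 with the median of ratios, and 2.91 with clean reads. From 98 to 161 d it was 0.731-fold (0.707 to 0.756), and it stood 1.45-fold higher at 161 d than at 63 d (1.38 to 1.51).

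The make-up of the 5p reads does not depend on the scaling of the libraries. The share of miR-30d was 24.1%, 18.45% and 19.7% at the 3 ages. The share of miR-30e-5p was 27.3%, 33.4% and 33.0%, and that of miR-30b-5p was 3.98%, 5.97% and 5.35%. For miR-30c-5p the share went from 16.5% and 15.7% to 12.45%, and for miR-30a-5p it was 28.1%, 26.5% and 29.5%. The Wilson intervals of miR-30e-5p overlapped between 98 d (33.2 to 33.7%) and 161 d (32.7 to 33.3%). At these read numbers such intervals are narrow and cover counting error only. How often they overlap for other miRNAs was not counted, so overlap or its lack is not read as a trait of the family.

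**Figure D3:**
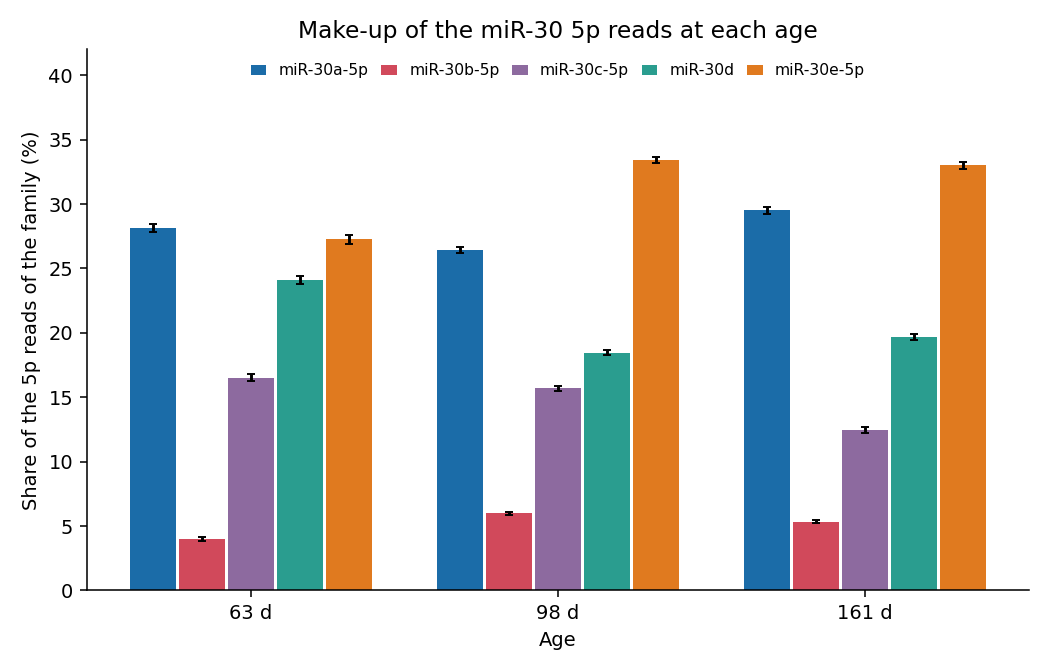
Share of each arm in the 5p reads of the family (%) at 63, 98 and 161 d, with 95% Wilson intervals for counting error. The bar of miR-30d drops from 24.1% at 63 d to 18.45% at 98 d while the bar of miR-30e-5p goes from 27.3% to 33.4%, and miR-30c-5p is lowest at 161 d with 12.45%.

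The neighbouring hairpins mir-30b and mir-30d did not keep a fixed ratio of their 5p arms. For the mir-30b and mir-30d pair the reads were 2644 and 16003 at 63 d, 8630.3 and 26658 at 98 d, and 5853.3 and 21520.5 at 161 d. The ratio of miR-30b-5p to miR-30d was thus 0.165 (0.1585 to 0.172), 0.324 (0.316 to 0.332) and 0.272 (0.264 to 0.280). It was 1.96-fold higher at 98 d than at 63 d (1.87 to 2.055) and 0.840-fold at 161 d against 98 d (0.809 to 0.872). Counting only copies of the most copied read gave other ratios, 0.237, 0.465 and 0.390, in the same order.

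In the mir-30e and mir-30c-1 pair, the ratio of miR-30e-5p to miR-30c-5p was 1.65, 2.13 and 2.65 in order of age. In the mir-30a and mir-30c-2 pair, the ratio of miR-30a-5p to miR-30c-5p was 1.70, 1.685 and 2.37. The first of these was higher after both steps, 1.29-fold (1.25 to 1.33) and 1.25-fold (1.22 to 1.28). The second was 0.990-fold from 63 to 98 d with an interval that holds 1 (0.962 to 1.02) and 1.41-fold from 98 to 161 d (1.37 to 1.44). Both use the sum of miR-30c-5p over its hairpins, since the reads of each hairpin were not told apart. Either ratio can thus change through the mir-30c hairpin of the other pair.

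**Figure D4:**
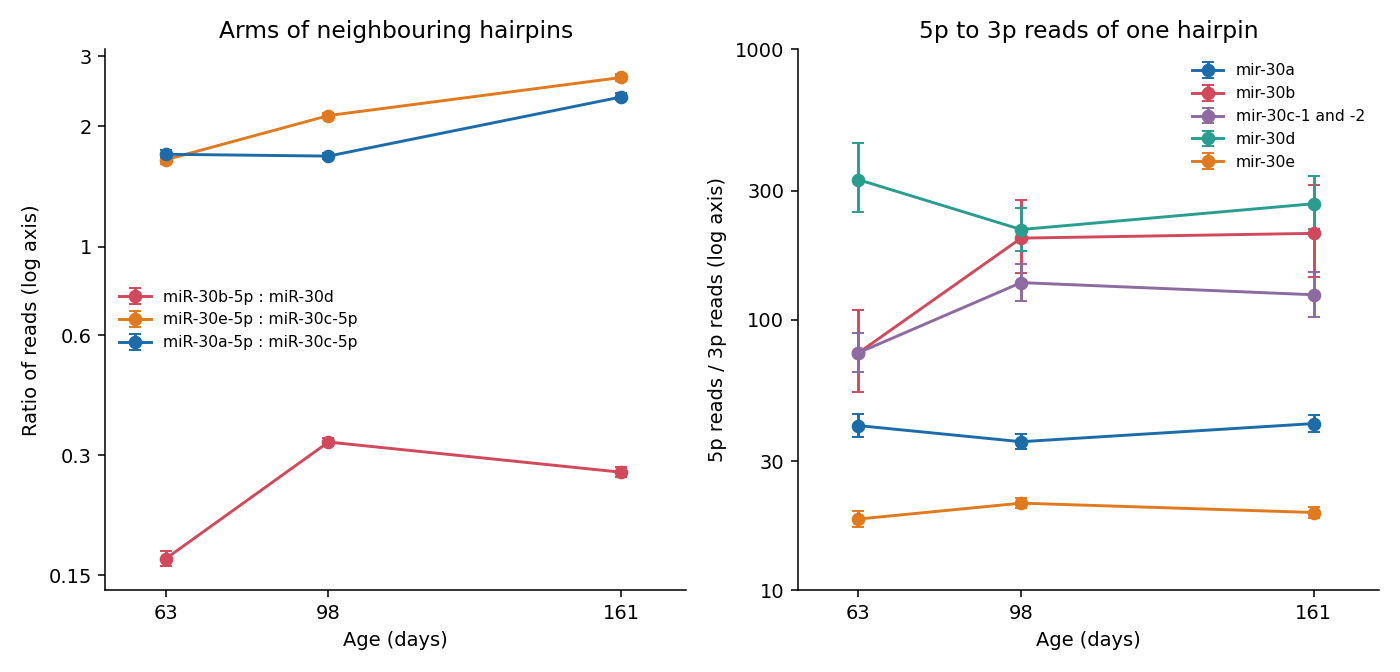
Ratio of the 5p reads of neighbouring hairpins (left) and of the 5p to the 3p reads of a hairpin (right) against age in days, both on log axes, with exact 95% intervals for counting error. On the left miR-30b-5p to miR-30d goes from 0.165 to 0.324 between 63 and 98 d. On the right mir-30b goes from 75.5 to 201, while mir-30a stays between 35.5 and 41.4 and mir-30e between 18.4 and 21.0.

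The 3p arms, usually the scarcer side of these hairpins, were present at 12.0 to 950 RPM. All 5 had at least 27 counts in every library. The 2 arms with the seed TTTCAGT held most of the 3p reads. For miR-30e-3p the levels were 673, 950 and 830 RPM, and for miR-30a-3p they were 313, 446 and 348 RPM. From 63 to 98 d both were higher, 1.41-fold (1.31 to 1.52) and 1.42-fold (1.27 to 1.59), and their folds from 98 to 161 d were 0.874 and 0.781. The human-named opposite arm of mir-30d, with the same seed, had 48.5, 123.5 and 80 reads and was 1.54-fold higher at 98 d than at 63 d (1.11 to 2.23).

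The 3 arms whose seed begins TGGGAG were lower at 98 d than at 63 d on this scale. The miR-30c-3p reads numbered 101, 129 and 83, which is 69.0, 53.35 and 37.0 RPM. For miR-30c-1-3p there were 44, 36 and 27 reads, or 30.04, 14.9 and 12.0 RPM. The miR-30b-3p arm had 35, 43 and 28 reads, or 23.9, 17.8 and 12.5 RPM. All 3 were lower at 161 d than at 63 d, with folds of 0.537 (0.397 to 0.725), 0.401 (0.239 to 0.662) and 0.523 (0.306 to 0.884), and their intervals lie below 1. Over all 238 porcine miRNAs counted in this pair, 50.4% had a fold above 1. From 63 to 98 d that share was 63.8% of 243. With copies of the most copied read the fold of miR-30c-1-3p was 0.653 from 63 to 161 d and 1.37 from 98 to 161 d, against 0.401 and 0.809 with all its reads. From 63 to 98 d the interval stayed below 1 for miR-30c-1-3p only (0.496, 0.310 to 0.788), and with clean reads as scale miR-30b-3p and miR-30c-3p came to folds of 1.095 and 1.14.

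The split of the 3p arms into 2 kinds was made after their values were seen, so the ratios below describe these arms and test nothing. The human-named arm of mir-30d, with the seed TTTCAGT, was left out. Set against each other, the summed reads of the 2 kinds moved apart without any scaling. The summed reads of miR-30a-3p and miR-30e-3p were 8.03 times those of miR-30b-3p, miR-30c-1-3p and miR-30c-3p in the 63 d library (6.87 to 9.42), 16.2 times in the 98 d library (14.1 to 18.75) and 19.1 times in the 161 d library (16.1 to 22.9). The ratio was 2.02-fold higher at 98 d than at 63 d (1.64 to 2.49). From 98 to 161 d its change of 1.18-fold was not larger than counting error (0.946 to 1.47). The ratio of the 5p arms of the same hairpins, miR-30a-5p and miR-30e-5p over miR-30b-5p and miR-30c-5p, was 2.70, 2.76 and 3.51. Its change from 63 to 98 d was 1.02-fold with an interval that holds 1 (0.999 to 1.05), but 1.06-fold with copies of the most copied read (1.03 to 1.085). The 5p ratio was 1.27-fold higher at 161 d than at 98 d (1.25 to 1.30).

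**Figure D5:**
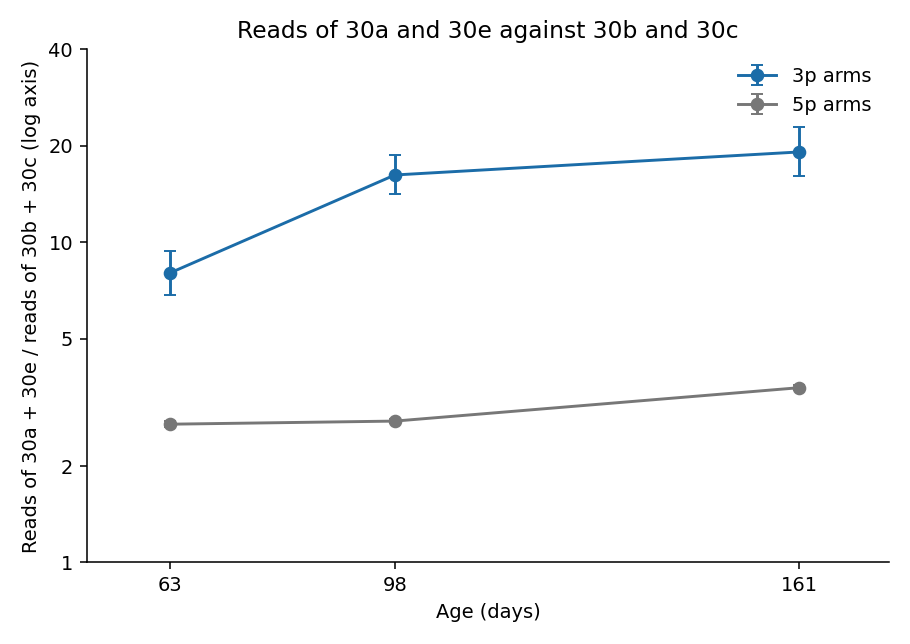
Summed reads of the 30a and 30e arms divided by those of the 30b and 30c arms (log axis) against age in days, for the 3p arms and for the 5p arms, with exact 95% intervals for counting error. The 3p ratio goes from 8.03 to 16.2 and 19.1, and the 5p ratio from 2.70 to 2.76 and 3.51. The arms were grouped after their values were seen.

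The ratio of 5p to 3p reads within a hairpin gives these values hairpin by hairpin. For mir-30b it was 75.5 (54.2 to 109), 201 (149 to 277.5) and 209 (144.5 to 315) in order of age, with a change of 2.66-fold in the first step (1.70 to 4.16). For both mir-30c hairpins together it was 75.6, 137 and 124, a 1.82-fold change in the first step (1.45 to 2.275). The ratio of mir-30e was 18.4, 21.0 and 19.4, and that of mir-30a 40.7, 35.5 and 41.4. Their changes from 63 to 98 d were 1.145-fold (1.06 to 1.24) and 0.872-fold (0.7805 to 0.974), and from 63 to 161 d both intervals hold 1. For mir-30d, with the human-named arm as 3p, it was 330, 216 and 269, with a change of 0.654-fold in the first step (0.469 to 0.912). The level of these ratios depended on which reads were counted. With copies of the most copied read the mir-30b ratio was 199, 466 and 537 and the mir-30d ratio 503, 363 and 382. With the reads of 1 hairpin per name, the mir-30c ratio was 37.8, 68.7 and 61.9. This lower level follows from the rule, which keeps the miR-30c-5p reads of 1 hairpin while the 3p reads of both hairpins are still summed.

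At the study's 2-fold limit, in either direction, 1 of 10 arms was called from 63 to 98 d, against 16.9% of porcine miRNAs. From 98 to 161 d it was 0 of 10, against 14.8%, and from 63 to 161 d 1 of 10, against 18.5%. With 10 arms, these counts are not read as a trait of the family. From 63 to 98 d, 0 of 10 arms had a fold above 2, against 13.6% of 243 porcine miRNAs with at least 10 counts in either library. Below 0.5 there was 1 of 10 arms, miR-30c-1-3p, against 3.29%. From 98 to 161 d, 0 of 10 arms lay above 2 and 0 below 0.5, against 2.46% and 12.3% of 244 porcine miRNAs. From 63 to 161 d, 0 of 10 lay above 2 (7.56% of 238) and 1 below 0.5 (10.9%), again miR-30c-1-3p. The interval of miR-30c-1-3p holds 0.5 in both pairs, and its call rests on 44 reads at 63 d. From 63 to 98 d the call was lost with clean reads as scale (0.729) and without reads that had mapping errors (0.5075), and from 63 to 161 d with copies of the most copied read (0.653). The median fold of the 10 arms was 1.25, 0.794 and 0.994 in the 3 pairs, against 1.225, 0.808 and 1.006 over all porcine miRNAs counted.

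Compared with other families of several loci, miR-30 lay between let-7 and miR-29. The 9 names of the let-7/miR-98 family, known as regulators of developmental timing, held 84718, 91397 and 60881 RPM. The 3 names of the miR-29 family, known for repressing collagen genes, held 565, 801 and 926 RPM. The fold of the miR-30 total was 1.22 times that of let-7/miR-98 from 63 to 98 d (1.21 to 1.24), 1.23 times from 98 to 161 d (1.21 to 1.24) and 1.5 times from 63 to 161 d (1.48 to 1.52). Against miR-29 it was 0.930 times (0.857 to 1.01), 0.708 times (0.665 to 0.753) and 0.658 times (0.607 to 0.714). Of these, the interval from 63 to 98 d holds 1. These ratios do not depend on scaling.

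Of the 53 other porcine miRNAs with at least 1000 counts in each library, miR-191, miR-125b and miR-133b had the log2 folds nearest to those of the family total over the 2 steps. The Euclidean distances were 0.033, 0.112 and 0.144. The levels of miR-191 were 8012, 10413 and 8658 RPM, a 1.30-fold and then a 0.8315-fold step. For miR-125b and miR-133b the folds were 1.37 and 1.22 from 63 to 98 d, and 0.764 and 0.868 from 98 to 161 d. This likeness rests on 3 libraries.

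The read that stood for each arm was the same sequence in all 3 libraries and matched the hairpin without error. It was 24 nt long for 4 of the 5p arms and 22 nt for miR-30b-5p and the 3p arms. The miR-30a-5p read was 2 nt longer at its 3′ end than the known mature sequence in the files, and that of miR-30c-5p was 1 nt longer. The miR-30b-3p and miR-30c-1-3p reads were 1 and 2 nt longer. The share of reads identical to this read was highest for miR-30b-5p, at 90.1%, 91.8% and 91.7%, and lowest among the 5p arms for miR-30d, at 62.9%, 63.9% and 64.0%. For miR-30e-5p it was 79.7%, 83.1% and 82.1%. Reads mapped with at least 1 error made up 5.74 to 7.64% of miR-30b-5p and 10.5 to 11.2% of miR-30d. Among the more abundant 3p arms, that share in miR-30e-3p was 17.5%, 12.5% and 11.4%, with a Wilson interval of 15.2 to 19.9% at 63 d. In miR-30a-3p it was 19.2%, 17.0% and 16.1%, with overlapping intervals (15.8 to 23.0% at 63 d and 13.7 to 18.9% at 161 d). The error limits of the 63 d file differ, as given above, and their part in this was not tested.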

How the data were processed

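Psoas major small RNA of 3 libraries, each made from pooled RNA of 6 pigs, was grouped by the age in the sample labels. The authors filtered adapter, short, junk, other RNA and repeat reads with ACGT101-miR v4.2 and mapped the rest to miRBase hairpins and to the pig genome, whose build was not given in the sources used here. The deposited expected counts give the reads of an arm with all its isoforms, not normalized, and a read that fits several hairpins is divided between them. A separate deposited value counts whole copies of the most copied read. The main levels use the expected counts and not these copies.

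The 63 d library listed 139 hairpin entries without a miRNA name, against 0 at 98 d and 0 at 161 d. Each was taken as a further hairpin of the entry above and given its name. Expected counts were summed over the hairpins of a name and scaled per 1000000 of all reads listed in the file. This was chosen after the files were seen, in place of counting 1 hairpin per name, because the division removes part of the reads of names with several hairpins. Folds carry exact (Clopper-Pearson) intervals given the sum of both counts, which were rounded to whole numbers first, shares Wilson intervals, and changes of ratios Wald intervals. All are 95% intervals. PCR reads without molecular identifiers are not independent molecules, so intervals cover counting error only. Calls needed 10 counts in either library and a fold above 2 or below 0.5. A count of 0 was set to 3 for calls.

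All member arms were named. Outside the family, the 3 miRNAs nearest in log2 folds were named. The members, the marker lists and the families compared were chosen with earlier results of these data known, and the split of 3p arms by seed was made after the values were seen. The alternatives were library factors from the authors' normalised values, clean reads, edgeR's TMM and DESeq2's median of ratios, other hairpin rules, only copies of the most copied read, only reads without mapping error, and other limits for calls. The fold and its interval were checked on simulated, independent Poisson counts. The spread between pigs and PCR copies was not simulated, so this checks the computation only. Scaling used edgeR 4.0.16 and DESeq2 1.42.0 (R 4.3.3), and all else Python 3.11.15 with scipy 1.17.1.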

Additional observations from a re-analysis of the deposited data

Results flagged for a closer look

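Reads of the family were also listed under names of other species, outside the porcine names. The opposite arm of the mir-30d hairpin, under the human name miR-30d-3p, had 48.5, 123.5 and 80 reads in order of age, each above the 3 counts used as the limit for a count of 0. The Chinese hamster name miR-384-5p, with the seed GTAAACA, had 4 reads at 161 d, the mouse-named fragment mir-30d-p5 had 7 reads at 98 d, and the rat name miR-30a-5p had 5 reads at 161 d. Each age had 1 library, so no library was tested for standing apart and no difference between groups was tested.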

How the results depend on the processing

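No paired analysis was possible because each age had 1 library. The family fold from 63 to 98 d (1.32) was 1.23 with the reads at 1 hairpin per name as scale, also 1.23 with the family itself counted at 1 hairpin as well, 1.215 with the authors' factors, 1.94 with clean reads, 1.18 with TMM, 1.135 with the median of ratios and 1.37 with copies of the most copied read. From 98 to 161 d (0.817) these gave 0.840, 0.854, 1.016, 0.683, 1.022, 1.04 and 0.798, and counting 1 hairpin per name on the file's scale gave 0.831. From 63 to 161 d (1.08) they gave 1.03, 1.055, 1.235, 1.325, 1.21, 1.18, 1.095 and 1.10. From 63 to 98 d, 4 of 10 arms were past the fold limit with clean reads, against 42% of porcine miRNAs. These were miR-30a-3p, miR-30b-5p, miR-30e-3p and miR-30e-5p, all higher, while miR-30c-1-3p, the 1 arm called on the main scale, was not among them. Limits of 1.8 and 0.56 gave 2 arms from 63 to 98 d (28.8% of porcine miRNAs) and 3 from 63 to 161 d (26.9%). A minimum of 100 counts left 0 in these pairs (12.4% and 14.2%), since miR-30c-1-3p has fewer. The family's share was 6.45%, 7.96% and 6.80% at 63, 98 and 161 d with the hairpin listed in most libraries, 6.205%, 7.66% and 6.55% with the hairpin of most reads, 6.14%, 8.11% and 6.775% with copies, and 5.065%, 6.835% and 5.49% without mapping errors. Against let-7/miR-98 the ratio of folds was 1.246, 1.241 and 1.547 or 1.546 with either choice of 1 hairpin per name, and 1.27 and 1.57 with copies in the pairs from 63 d. Against miR-29 it was 0.749 and 0.851 with copies in the 2 steps. The cause of these shifts was not tested. Folds of single arms moved beyond their counting interval in 22 of 30 values with clean reads. It was 20 with the authors' factors, 20 with the median of ratios and 19 with TMM. With the reads at 1 hairpin per name as scale it was 13, and with copies 8. Without mapping errors, and with 1 hairpin per name on the file's scale, it was 0. Depth limits the 3p arms of 30b and 30c, with 27 to 129 reads per library.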
